A study of Mus musculus with 18 samples.

Results

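The BCL2 family holds the proteins that decide whether the mitochondrial outer membrane stays intact during apoptosis, and 10 of its genes were followed here through the response of plasmacytoid dendritic cells (pDCs) to imiquimod. They were the rows of the deposited gene count table, out of 54532 genes, whose symbol was Bcl2, Bcl2l1, Mcl1, Bcl2a1a, Bcl2a1b, Bcl2a1d, Bcl2l11, Bik, Bax or Bak1. All 10 were found and all 10 passed the expression filter, Bik through its imiquimod libraries alone.

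pDCs are the dendritic cells known for secreting type I interferon when TLR7 or TLR9 detects nucleic acid. Here they were grown from the marrow of C57BL/6 wild-type mice over 7 days in 80 ng/mL Flt3 ligand and enriched on beads through B220 to a routine purity of 80%, so each library is of a population and not of single cells. There were 6 groups of 3 libraries: imiquimod, a small-molecule agonist of TLR7, at 2.5 µg/mL for 6 h and for 16 h; the vehicle, labelled LAL, at 0, 6 and 16 h; and untreated cells at 0 h. All 6 groups shared the mouse strain, the Flt3 ligand culture and the enrichment. Nothing in the labels ties replicates to different animals or culture wells, so the p-values reflect only how far these libraries differ, and that spread may be technical.

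Survival members of the family (Bcl2, Bcl2l1 which encodes BCL-XL, Mcl1, and the Bcl2a1 genes, the mouse copies of A1) bind and hold back the death members. The effectors BAX and BAK, encoded by Bax and Bak1, form pores in the outer mitochondrial membrane when released. BH3-only members, here Bcl2l11 (BIM) and Bik, sense stress and occupy the survival proteins or act on the effectors. In lymphoid and myeloid cells Bcl2l1 and the Bcl2a1 genes are known as NF-kappaB targets, and in mice pDCs are known to depend on BCL2 for their survival.

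The start regions of 5 survival members are shown here. They were chosen because these genes, unlike Bcl2, were all highest in imiquimod at 6 h with the main scaling used below. A1 also exists in near-identical copies, which bears on how their counts can be read. Sequences are from RefSeq on GRCm38.p6 (the assembly called mm10), run from 250 bases before to 50 after a transcription start, and are written 5′ to 3′ along the gene. Of the 10 members, 9 had at least 1 such region. In the first pair, capitals mark the match to a strict NF-kappaB type motif (GGG, any 2 bases, then TTTCC), which on this strand reads as its reverse complement. Its first base lies 218 bases before the start in Bcl2l1 and 28 before it in Mcl1.
Bcl2l1, middle start region (chr2:152830668-152830967, minus strand): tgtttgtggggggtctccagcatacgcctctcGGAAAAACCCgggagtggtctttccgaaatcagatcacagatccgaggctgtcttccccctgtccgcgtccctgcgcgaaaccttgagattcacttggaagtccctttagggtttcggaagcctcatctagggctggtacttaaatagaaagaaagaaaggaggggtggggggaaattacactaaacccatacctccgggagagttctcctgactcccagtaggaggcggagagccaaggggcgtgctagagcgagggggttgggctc
Mcl1 (chr3:95658471-95658770, plus strand): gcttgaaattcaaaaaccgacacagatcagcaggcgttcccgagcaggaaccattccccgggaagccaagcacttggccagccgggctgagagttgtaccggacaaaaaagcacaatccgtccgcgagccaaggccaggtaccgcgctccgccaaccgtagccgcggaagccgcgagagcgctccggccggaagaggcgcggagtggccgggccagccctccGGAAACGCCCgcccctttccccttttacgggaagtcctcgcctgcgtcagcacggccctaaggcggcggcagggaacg
Searched on both strands, this motif was present for 2 of the 9 members with a region, Bcl2l1 and Mcl1. Beside this stood 1.89% of 27025 genes (1.63% of 32851 RefSeq start regions of the same length), a gene counting when any of its regions matched. Of the 3 regions of Bcl2l1, only the middle region held the motif. A looser form of it (GGG, any 5 bases, then CC), which contains every such match, was present for 7 members, beside 53.5% of all genes, and an interferon response type motif (GAAA, any 2 bases, then GAAA) for 0 members, beside 3.99% of all genes. These are matches of letters within 300 bases and not sites of binding. The A1 copies all lie on chromosome 9, and in the next set capitals mark the 84 bases that all 3 start regions share as their longest common run.
Bcl2a1a (chr9:88956670-88956969, plus strand): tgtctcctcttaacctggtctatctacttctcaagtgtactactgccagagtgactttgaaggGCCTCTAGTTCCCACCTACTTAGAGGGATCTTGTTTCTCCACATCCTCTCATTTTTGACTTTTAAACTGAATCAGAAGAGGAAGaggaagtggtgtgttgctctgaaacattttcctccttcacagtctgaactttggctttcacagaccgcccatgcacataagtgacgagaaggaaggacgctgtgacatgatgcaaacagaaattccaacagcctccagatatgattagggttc
Bcl2a1b (chr9:89199023-89199322, plus strand): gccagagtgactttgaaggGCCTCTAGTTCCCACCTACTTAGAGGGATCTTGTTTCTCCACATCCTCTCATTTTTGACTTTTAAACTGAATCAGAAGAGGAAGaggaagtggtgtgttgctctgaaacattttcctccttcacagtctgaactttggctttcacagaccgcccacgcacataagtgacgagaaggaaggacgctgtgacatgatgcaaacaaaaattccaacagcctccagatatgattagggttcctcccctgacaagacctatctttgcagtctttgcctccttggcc
Bcl2a1d (chr9:88731801-88732100, minus strand): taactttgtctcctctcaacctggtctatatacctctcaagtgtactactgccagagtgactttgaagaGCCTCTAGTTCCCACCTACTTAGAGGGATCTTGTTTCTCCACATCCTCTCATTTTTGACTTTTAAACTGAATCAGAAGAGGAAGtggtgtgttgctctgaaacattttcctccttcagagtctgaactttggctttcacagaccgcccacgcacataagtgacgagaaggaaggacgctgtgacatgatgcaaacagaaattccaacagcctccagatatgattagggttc
At the level of transcripts, 55.2% of the windows of 75 bases (the read length) in Bcl2a1a, 68.4% in Bcl2a1b and 67.6% in Bcl2a1d also occur in another gene of GENCODE M21. All the shared windows of Bcl2a1a and Bcl2a1d occur in another Bcl2a1 gene. For Bcl2a1b 43.5% of its windows do, and the remainder of its shared windows occur in Gm29094, a gene model with 1 count over all 18 libraries. How reads with several matches were counted is not given in the sources used here, so the split among Bcl2a1a, Bcl2a1b and Bcl2a1d is uncertain. Their sum, to which Bcl2a1c was added, is given beside them. If such reads were left out of the counts, the sum lacks them too and its level is too low. Among the other members, 6.84% of the windows of Bax were shared (with Gm45808, which held 0 counts) and none of the windows of Bcl2, Bcl2l1, Mcl1, Bcl2l11, Bik or Bak1.

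Total counts ran from 10609741 to 13447018 per library, 14876 genes were tested, and the spread between libraries of a group corresponded to a biological coefficient of variation of 3.08%. No pair of libraries in a group agreed within sampling noise, and the vehicle libraries at 6 h differed most among themselves. The 10 pDC markers (among them Siglech, Tcf4 and Irf8) had counts in every group, with summed levels, in CPM (library-size-scaled counts), of 6160 to 6390 in imiquimod at 6 h, 4310 to 4390 in imiquimod at 16 h, 7210 to 7370 in vehicle at 6 h, 8790 to 8890 in vehicle at 16 h, 7380 to 7480 in vehicle at 0 h and 7370 to 7480 in untreated cells. Their group means did not move together: 5 were higher and 5 lower in imiquimod than in vehicle at 6 h, and 3 higher and 7 lower at 16 h. Siglech was at 299 CPM in imiquimod at 6 h, against 1150 in vehicle at 6 h, and Ly6d at 583, against 173. The 4 markers of mature dendritic cells (Ccr7, Fscn1, Ccl22 and Cd83) summed to 3850 to 3960 CPM in imiquimod at 6 h and 3610 to 3710 at 16 h, against 210 to 228 in vehicle at 6 h and 472 to 541 at 16 h. The 8 B cell markers summed to 171 to 185 and 193 to 205 CPM in imiquimod at 6 and 16 h, against 108 to 118 and 115 to 145 CPM in vehicle at the same times. Pax5 made most of that difference (112 CPM in imiquimod at 6 h and 133 at 16 h, against 18.9 in vehicle at 6 h and 21.3 at 16 h), and the group means of 5 of the 8 at 6 h and 6 of the 8 at 16 h were lower in imiquimod, Cd79a and Cd79b among them. At 6 h the 6 cDC1 markers summed to 542 to 570 CPM in imiquimod, against 1360 to 1380 in vehicle, and the 6 cDC2 markers to 157 to 163, against 290 to 307, with every group mean lower in imiquimod. The 7 monocyte and macrophage markers summed to 181 to 185 CPM in imiquimod at 6 h, against 344 to 391 in vehicle at 6 h. Of these, 4 were lower, Lyz2 and Csf1r among them, and 3 higher (Fcgr1, Cd14 and Ly6c2). At 16 h the cDC1 markers summed to 492 to 528 CPM in imiquimod, against 1180 to 1220 in vehicle, all 6 lower. The cDC2 markers summed to 135 to 137, against 294 to 299, with 4 lower and 2 higher. The monocyte and macrophage markers summed to 71.5 to 87.5, against 347 to 359, with 5 lower and 2 higher. All 8 neutrophil markers together stayed at or under 1.75 CPM in every library, with Retnlg at 0 in each group. The part of these other cells in the results below was not tested, and in bulk libraries fewer cells of a type and less RNA per cell cannot be told apart. Scaling was by TMM, which assumes that most genes do not change. Its factors were 0.8174 to 0.8374 for imiquimod at 6 h and 1.006 to 1.066 elsewhere, and scaling by library totals instead moved the median imiquimod effect of all genes at 6 h by -0.35 on the log2 scale.

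Leaving out Bik, which was tested only because its imiquimod libraries reached the filter, the other 9 members were all higher with imiquimod than with time-matched vehicle, at 6 h and again at 16 h, when called at an adjusted p under 0.05 (edgeR quasi-likelihood test, Benjamini-Hochberg over all genes tested). Over all genes tested, 37.7% were called higher and 39.2% lower at 6 h, and 39.1% higher and 38.1% lower at 16 h, so a call in one of these comparisons was common. The median log2 change of the 9 was 2.51 at 6 h and 1.32 at 16 h, beside medians of -0.04 and 0 over all genes tested. The 9 include Bcl2a1a, Bcl2a1b and Bcl2a1d, which share reads, so the count and the median weigh A1 heavily. Those of the 9 outside A1 had log2 changes from 0.15 (Bcl2) to 5.15 (Bcl2l1) at 6 h. At 16 h they ran from 0.36 (Mcl1) to 3.66 (Bcl2l1). The sizes differed widely, from log2 changes over 5 at 6 h for Bcl2l1 and the Bcl2a1 genes to less than 2-fold for Mcl1, Bax and Bak1. With library totals in place of TMM, 7 of the 9 were called higher at 6 h, Bcl2 was called lower and Bax was not called, while at 16 h 9 were called higher. The members were chosen with earlier results of these data known, so their common direction is a description and not a test. Of 11 further family genes, described below, 3 were called higher and 7 lower at 6 h, and 4 higher and 6 lower at 16 h.

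**Figure D1:**
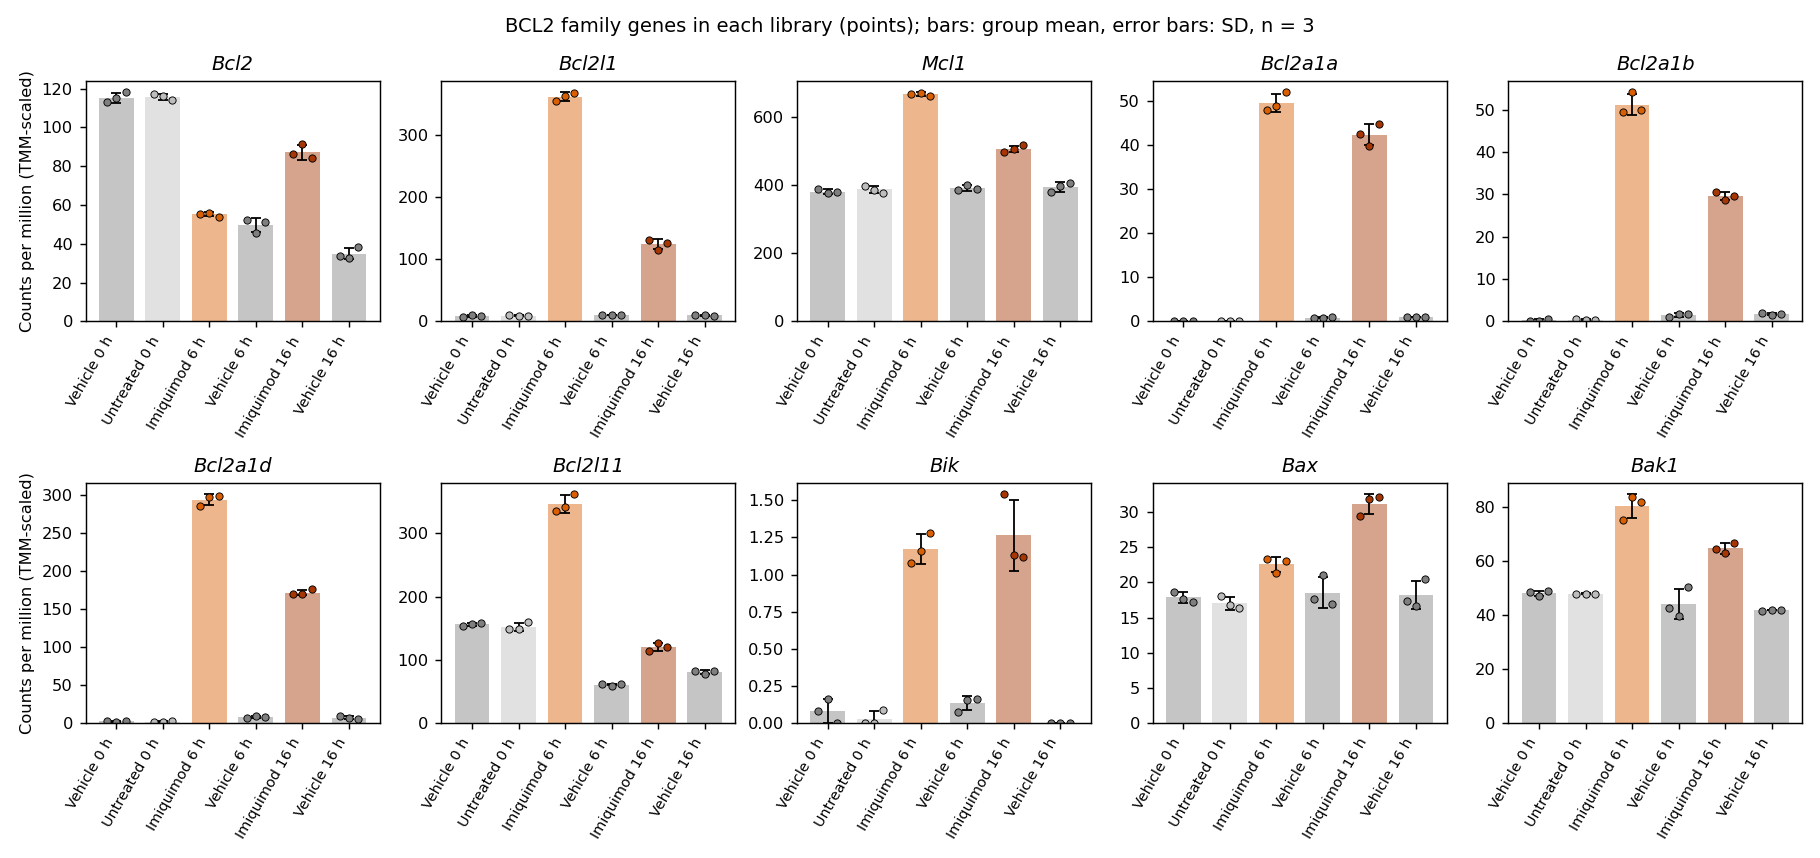
Level of each member in every library, in TMM-scaled CPM on linear axes that start at 0; points are libraries, bars group means and error bars SDs (n = 3), with imiquimod in orange and brown and the other groups in grey. Bcl2l1, the Bcl2a1 genes and Bcl2l11 are highest in imiquimod at 6 h, while Bcl2 is highest in the groups collected at 0 h.

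Bcl2l1 (chr2:152780668-152831728, minus strand), the BCL-XL gene, showed a large and early rise. It was at 356, 363 and 369 CPM in the 3 imiquimod libraries at 6 h, against 9.88, 10.3 and 10.3 CPM in the vehicle libraries at 6 h. At 16 h it was at 131, 115 and 127 CPM in imiquimod, against 10.6, 10.1 and 8.88 CPM in vehicle. The imiquimod and vehicle groups lay far apart at both times. At 0 h the level was 7.15, 9.70 and 8.49 CPM in vehicle, and 9.70, 9.45 and 8.58 CPM in untreated cells, a range that the vehicle libraries at 16 h overlapped and those at 6 h lay just above. The log2 change was 5.15 (SE 0.060, a 35.6-fold change, adjusted p = 1.25e-74) at 6 h and 3.66 (SE 0.068, 12.6-fold, adjusted p = 6.94e-60) at 16 h in edgeR. The effect at 16 h was smaller than at 6 h, a difference that was itself called (log2 -1.5, SE 0.12, adjusted p = 3.39e-19, edgeR).

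The Bcl2a1 genes, which encode the short-lived survival protein A1, rose at both times. Bcl2a1d (chr9:88723285-88731914, minus strand) took most of their counts, with 286, 298 and 299 CPM in imiquimod at 6 h, against 6.84, 8.87 and 8.45 CPM in vehicle at 6 h. At 16 h it had 170, 170 and 176 CPM in imiquimod, against 9.19, 7.00 and 5.66 CPM in vehicle. Every imiquimod library thus stood above every vehicle library by more than 10-fold. Bcl2a1a (chr9:88956900-88962419, plus strand) had 47.9, 48.8 and 51.9 CPM in imiquimod at 6 h and 42.5, 39.8 and 44.7 CPM at 16 h, against 0.771 to 0.985 CPM in vehicle at 6 h and 0.975 to 1.04 CPM at 16 h. Bcl2a1b (chr9:89199209-89207827, plus strand) had 49.5, 54.1 and 50 CPM in imiquimod at 6 h and 30.6, 28.7 and 29.7 CPM at 16 h, against at most 1.77 CPM in vehicle at 6 h and 1.42 to 2.02 CPM at 16 h. Log2 changes against the vehicle of the same time were 5.19 and 4.56 for Bcl2a1d, 5.86 and 5.37 for Bcl2a1a, and 5.08 and 4.10 for Bcl2a1b, at 6 h and 16 h in turn.

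Because these genes share reads, their summed counts were also fitted as a single row. The sum was 384, 401 and 402 CPM in imiquimod at 6 h and 243, 239 and 250 CPM at 16 h, against 8.63, 11.4 and 11.2 CPM in vehicle at 6 h and 12.2, 9.40 and 8.44 CPM at 16 h. Its log2 change was 5.25 (SE 0.060, 38.0-fold, adjusted p = 9.2e-73) at 6 h and 4.61 (SE 0.064, 24.4-fold, adjusted p = 1.29e-66) at 16 h in edgeR, and the 16 h effect was smaller (log2 -0.64, adjusted p = 2.37e-06). As deposited, Bcl2a1d held 74.4% of the summed counts in imiquimod at 6 h and 70.4% at 16 h, against 77.5% in vehicle at 6 h and 72.6% at 16 h, and Bcl2a1a held 12.5% and 17.3%, against 8.10% and 10.1%. Bcl2a1c, a further copy that did not pass the filter, had 23 counts in imiquimod at 6 h, against 0 in vehicle at 6 h. With the vehicle group set to a floor of 3 counts this is 9.49-fold higher, a value that leaves out counting error.

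Mcl1 (chr3:95658788-95663176, plus strand), whose protein turns over quickly, had the highest level per kilobase of the 10 members at the start and rose by less than 2-fold. Its levels were 668, 672 and 661 CPM in imiquimod at 6 h and 497, 506 and 517 CPM at 16 h, against 387, 402 and 388 CPM in vehicle at 6 h and 380, 399 and 406 CPM at 16 h. No imiquimod library overlapped a vehicle library. The log2 change was 0.76 (SE 0.032, 1.70-fold, adjusted p = 5.15e-36) at 6 h and 0.36 (SE 0.032, 1.28-fold, adjusted p = 3.83e-17) at 16 h in edgeR. In vehicle Mcl1 stayed where it began, with log2 changes against vehicle at 0 h of 0.04 at 6 h and 0.05 at 16 h, neither of them called (adjusted p = 0.272 and 0.167, edgeR).

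Bcl2 (chr1:106538178-106714274, minus strand), the founding survival gene, behaved differently from the other survival members. It was at 55.6, 55.9 and 54.0 CPM in imiquimod at 6 h, against 52.1, 45.8 and 51.3 CPM in vehicle at 6 h. It was at 86.2, 91.6 and 84.0 CPM in imiquimod at 16 h, against 33.8, 32.8 and 38.3 CPM in vehicle at 16 h. All of these lay under the libraries at 0 h, with 113, 115 and 118 CPM in vehicle and 117, 116 and 114 CPM in untreated cells. At 16 h the log2 change was 1.32 (SE 0.055, 2.49-fold, adjusted p = 7.17e-36, edgeR), and the effect at 16 h exceeded that at 6 h by 1.17 (SE 0.080, adjusted p = 1.62e-22). At 6 h the log2 change was 0.15 (SE 0.057, adjusted p = 0.0137, edgeR) and rested on the scaling and on 1 library: it was -0.20 (adjusted p = 0.00118) with library totals and 0.07 (adjusted p = 0.289) without vehicle replicate 2. The counts of Bcl2 on the same strand could include reads of Gm37053, a gene model within it that held 887 counts, against 16585 for Bcl2 over all libraries.

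Bcl2l11 (chr2:128126038-128162547, plus strand), which encodes the BH3-only protein BIM, had a large imiquimod effect at 6 h and a smaller one at 16 h. In vehicle at 0 h it had a mean of 156 CPM, above the vehicle at both later times. It was at 336, 341 and 362 CPM in imiquimod at 6 h, against 61.4, 59.4 and 61.1 CPM in vehicle at 6 h. By 16 h it was at 114, 126 and 120 CPM in imiquimod, against 82.9, 77.6 and 82.2 CPM in vehicle. The 2 treatments did not overlap at either time, but their distance had shrunk. The log2 change was 2.51 (SE 0.042, 5.71-fold, adjusted p = 1.15e-63) at 6 h and 0.57 (SE 0.044, 1.48-fold, adjusted p = 3.1e-20) at 16 h in edgeR. The difference between the times, -1.94 (SE 0.062, adjusted p = 1.02e-42), lay between -1.98 and -1.61 under the alternatives tried.

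Bik (chr15:83526862-83544634, plus strand), a BH3-only gene whose protein is known at the endoplasmic reticulum, was close to absent without imiquimod. Its counts were 11, 12 and 13 in imiquimod at 6 h and 21, 15 and 14 at 16 h, against 1, 2 and 2 in vehicle at 6 h and 0, 0 and 0 at 16 h. The vehicle libraries at 0 h held 1, 2 and 0 counts and the untreated libraries 0, 0 and 1. Because Bik entered the test only through its imiquimod libraries, its sizes against vehicle are given as a description with no p. At 6 h the fitted log2 change was 3.06. At 16 h Bik was 14.2-fold higher in imiquimod with the vehicle group, at 0 counts, set to a floor of 3 counts. This value leaves out counting error. Within imiquimod its 2 groups overlapped, with 1.08 to 1.28 CPM at 6 h and 1.12 to 1.54 CPM at 16 h.

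The effector genes changed by less than 2-fold. Bak1 (chr17:27019810-27029009, minus strand) was at 75.3, 83.8 and 81.9 CPM in imiquimod at 6 h and 64.5, 62.9 and 66.7 CPM at 16 h, against 42.5, 39.5 and 50.3 CPM in vehicle at 6 h and 41.7, 41.9 and 42.0 CPM at 16 h. Its log2 change was 0.87 (SE 0.058, 1.83-fold, adjusted p = 8.72e-24) at 6 h and 0.63 (SE 0.059, 1.54-fold, adjusted p = 4.39e-16) at 16 h in edgeR. Ggnbp1 overlaps Bak1 on the opposite strand and held 310 counts, against 11583 for Bak1, and the strand setting of the counting is not given in the sources used here. Bax (chr7:45461697-45466898, minus strand) was at 23.4, 21.4 and 23.0 CPM in imiquimod at 6 h and 29.5, 31.8 and 32.1 CPM at 16 h, against 17.7, 21.1 and 16.9 CPM in vehicle at 6 h and 17.4, 16.7 and 20.5 CPM at 16 h. The Bax groups nearly touched at 6 h and were well apart at 16 h. Its log2 change was 0.28 (SE 0.087, 1.22-fold, adjusted p = 0.00263) at 6 h and 0.77 (SE 0.081, 1.71-fold, adjusted p = 4.12e-14) at 16 h in edgeR. The 6 h value for Bax turned to -0.07 (adjusted p = 0.481) with library totals, and without vehicle replicate 3 it was 0.20 (adjusted p = 0.0515). The effect on Bax was larger at 16 h than at 6 h by 0.49 (SE 0.12, adjusted p = 0.000289, edgeR).

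Set side by side, the difference between the effects at 16 h and at 6 h was called for 8 of the 9 members other than Bik, 2 of them larger at 16 h (Bcl2 and Bax) and 6 smaller (Bcl2l1, Mcl1, Bcl2a1b, Bcl2a1d, Bcl2l11 and Bak1). Over all genes tested 56.9% had such a call. Bcl2a1a was not called on its own (-0.49, adjusted p = 0.243, edgeR). With library totals the median of all genes moves by 0.34 in this comparison, and the differences of Mcl1 (-0.07, adjusted p = 0.168) and Bcl2a1d (-0.29, adjusted p = 0.0514) were then not called, while that of Bak1, -0.24 with TMM, was 0.09. A direct comparison of imiquimod at 16 h with imiquimod at 6 h gave 9 called members, beside 63.7% of all genes tested. Bcl2 (0.66) and Bax (0.46) were higher at 16 h, and Bcl2l1 (-1.55), Bcl2l11 (-1.53), Bcl2a1b (-0.79), Bcl2a1d (-0.78), Mcl1 (-0.40), Bak1 (-0.31) and Bcl2a1a (-0.23) were lower. Bik was not called (0.11, adjusted p = 0.795). The Bcl2a1a value was 0.07 and that of Bak1 -0.01 with library totals, neither of them called.

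**Figure D2:**
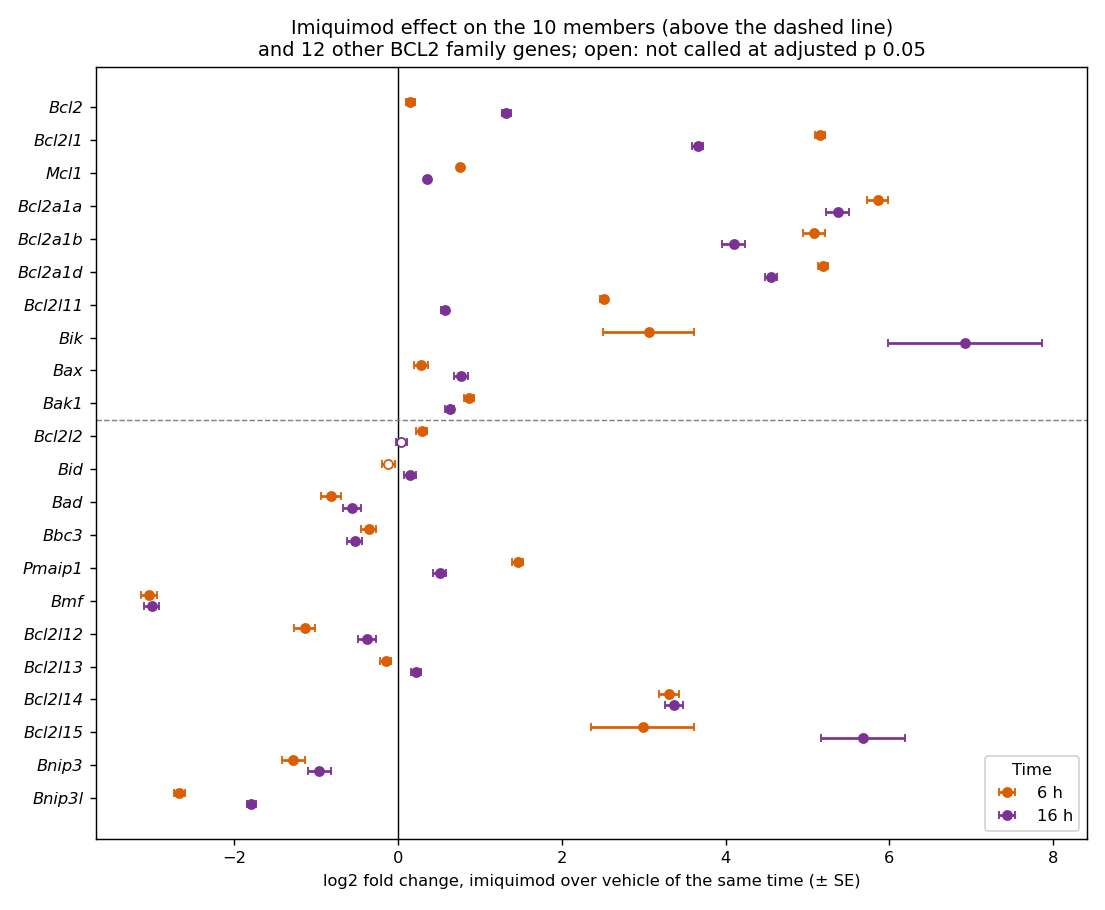
Log2 fold change of imiquimod over the vehicle of the same time, with its SE, for the 10 members (above the dashed line) and 12 further BCL2 family genes, at 6 h (orange) and 16 h (purple); open points were not called. All 10 members lie right of 0 with TMM scaling (Bcl2 and Bax at 6 h lie left of it with library totals), the genes below the line lie on both sides, and Bik and Bcl2l15 were tested only through imiquimod libraries, the 16 h value of Bik depending on the prior count because the vehicle group had 0 counts.

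The mix of survival genes changed along with their levels. To compare genes of different length, CPM were divided by the exon length of each gene in kilobases, and each gene was taken as a share of the summed level per kilobase of the 6 survival members. Mcl1 made up 26.2% ± 0.513 of that sum in imiquimod at 6 h and 31.4% ± 0.458 at 16 h, against 85.3% ± 0.961 in vehicle at 6 h and 86.7% ± 1.91 at 16 h (SD, n = 3 each). The 3 Bcl2a1 genes together made up 62.3% ± 0.551 in imiquimod at 6 h and 60.8% ± 0.306 at 16 h, against 9.05% ± 1.15 in vehicle at 6 h and 8.85% ± 1.83 at 16 h. In vehicle at 0 h the shares were 86.6% ± 0.656 for Mcl1, 9.79% ± 0.274 for Bcl2 and 2.19% ± 0.318 for the 3 Bcl2a1 genes. Bcl2l1 held 10.6% ± 0.10 in imiquimod at 6 h and 5.74% ± 0.340 at 16 h, against 1.65% ± 0.0265 in vehicle at 6 h and 1.61% ± 0.158 at 16 h. Bcl2, whose transcript is long, fell short of 1% of the sum in imiquimod at 6 h (0.810% ± 0.0230) and held 2.02% ± 0.131 at 16 h, against 4.04% ± 0.375 in vehicle at 6 h and 2.86% ± 0.216 at 16 h. These shares compare genes within a library and do not depend on the scaling between libraries, but they rest on a single exon length per gene. They also rest, as do the sums below, on how reads shared among the Bcl2a1 genes were counted. Bcl2l2, a survival gene outside the members, was left out of both. It was at 8.29 per kilobase in imiquimod at 6 h and 7.82 at 16 h, against 6.78 in vehicle at 6 h and 7.61 at 16 h.

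The summed level per kilobase of the 6 survival members was 745 ± 12.7 in imiquimod at 6 h and 472 ± 9.85 at 16 h, against 135 ± 3.51 in vehicle at 6 h and 133 ± 1.53 at 16 h. The 2 effectors summed to 47.7 ± 1.39 and 46.7 ± 1.22 in imiquimod at 6 and 16 h, against 30.1 ± 1.42 and 28.9 ± 1.37 in vehicle at the same times. Divided by the level of Bcl2l11 in the same library, the survival sum gave a ratio of 17.2 ± 0.569 in imiquimod at 6 h, against 17.8 ± 0.808 in vehicle at 6 h, and the libraries of these groups overlapped (16.6 to 17.7 against 17.1 to 18.7). At 16 h the ratio was 31.6 ± 1.78 in imiquimod, against 13.3 ± 0.503 in vehicle, with no overlap (29.6 to 32.9 against 12.8 to 13.8). At 0 h it was 6.61 ± 0.174 in vehicle and 6.91 ± 0.451 in untreated cells, under the range of every later group. No test was run on these ratios, since the smallest two-sided p that an exact permutation of 3 against 3 libraries can give is 0.1. The divisor was Bcl2l11 alone and left out other BH3-only genes. Of these, Pmaip1 was at 88.6 per kilobase in imiquimod at 6 h, against 32.2 in vehicle at 6 h. Bmf (0.979 against 8.08), Bbc3 (8.48 against 10.9) and Bad (2.95 against 5.21) were lower in imiquimod at 6 h. The likeness at 6 h therefore holds for Bcl2l11 and not for BH3-only genes at large. The ratios describe transcripts and not the amounts of protein.

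**Figure D3:**
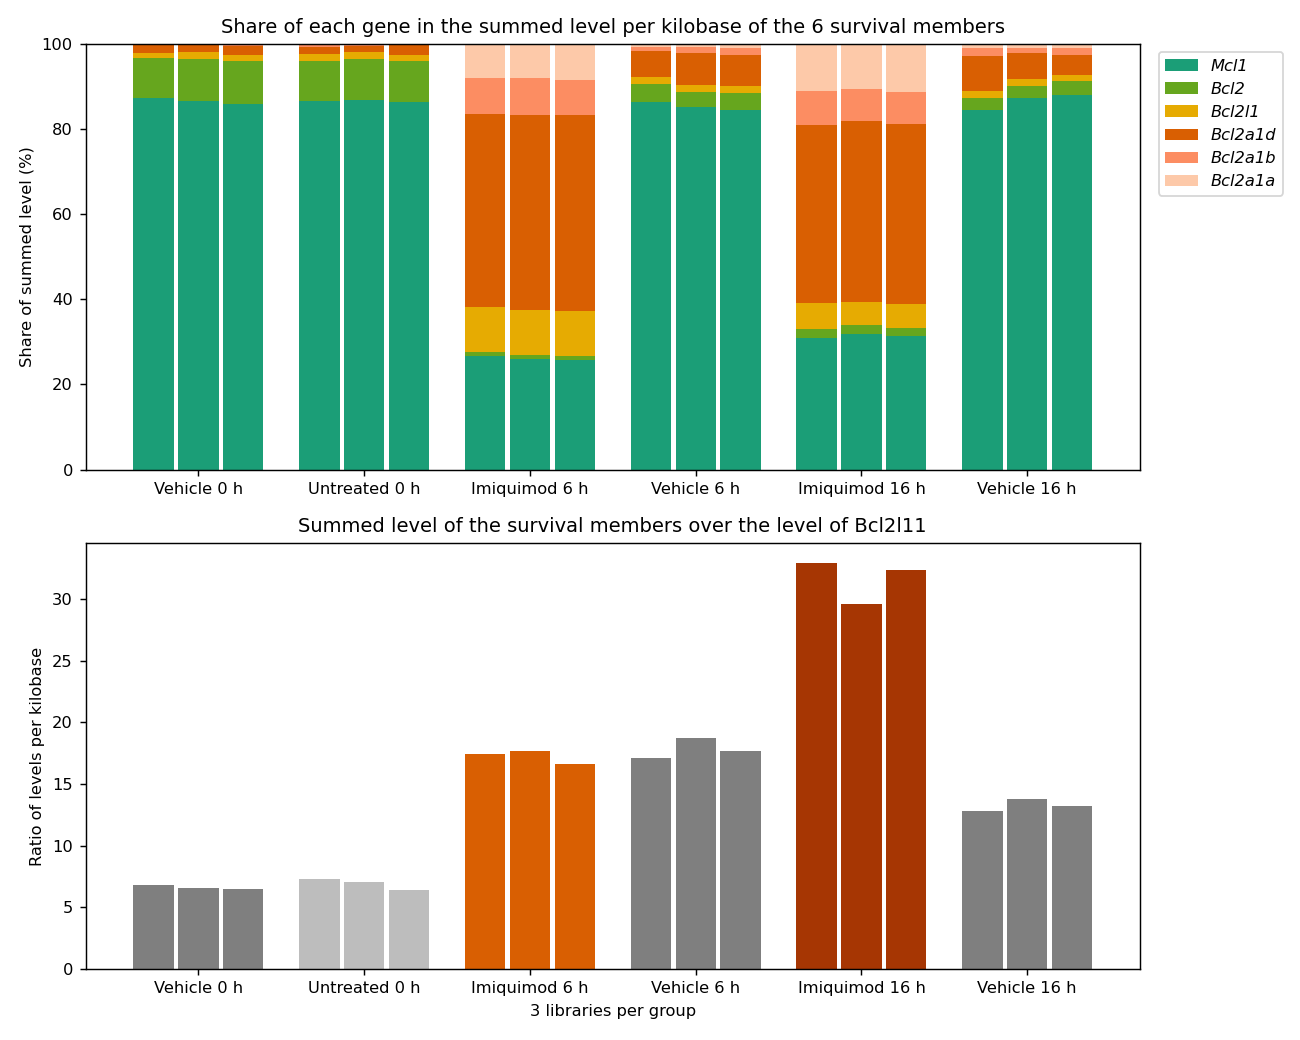
Upper panel: share of each survival gene (%) in the summed level per kilobase of the 6 survival members, 1 bar per library; lower panel: that sum divided by the level per kilobase of Bcl2l11 in the same library. Mcl1 (green) fills most of each bar in vehicle and untreated libraries and the Bcl2a1 genes (orange shades) most of each bar in imiquimod, while the lower ratio is alike in imiquimod and vehicle at 6 h and apart at 16 h. Other BH3-only genes are not part of the ratio.

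The vehicle arm moved on its own in culture, which sets what each imiquimod value is compared with. Against vehicle at 0 h, 6 members were called in vehicle at 6 h and 6 in vehicle at 16 h, beside 52.9% and 58.4% of all genes tested. Bcl2 fell by 1.21 (SE 0.050, adjusted p = 3.04e-35) at 6 h and by 1.72 (SE 0.054, adjusted p = 3.57e-43) at 16 h in edgeR, a 3.30-fold lower level at the later time. Bcl2l11 fell by 1.37 (SE 0.044, adjusted p = 5.91e-42) at 6 h and by 0.95 (SE 0.043, adjusted p = 7.79e-33) at 16 h. The summed Bcl2a1 genes rose by 2.10 (SE 0.15, 4.29-fold) at 6 h and 2.04 (SE 0.15, 4.13-fold) at 16 h, and the vehicle libraries at 0 h held only 26 to 34 summed counts each. Bak1 was slightly lower in vehicle at 16 h (-0.20, adjusted p = 0.00425, edgeR). At 6 h it was not called (-0.13, adjusted p = 0.0657), but was without vehicle 6 h replicate 3 (-0.22, adjusted p = 0.0023) and with library totals (-0.14, adjusted p = 0.0421). Bcl2l1 was called higher at 6 h (0.27, adjusted p = 0.0312, edgeR), but not without vehicle 0 h replicate 1 (0.17, adjusted p = 0.242), without vehicle 6 h replicate 2 (adjusted p = 0.0605) or replicate 3 (adjusted p = 0.0586), with only the groups compared (adjusted p = 0.0634) or in DESeq2 (adjusted p = 0.0528). At 16 h it was not called (0.22, adjusted p = 0.0875, edgeR), but was without vehicle 0 h replicate 2 (0.34, adjusted p = 0.0183) or vehicle 16 h replicate 3 (0.29, adjusted p = 0.0425). Bax and Bik were not called at either time.

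Measured from vehicle at 0 h, the 2 comparisons with imiquimod share their control libraries with the vehicle course, so the values are set side by side without a count of agreement. Of the 9 members other than Bik, imiquimod at 6 h had 8 called higher and 1 lower, beside 75.4% of all genes tested called, and imiquimod at 16 h 7 higher and 2 lower, beside 75.5%. Bcl2 was lower in imiquimod than in vehicle at 0 h, by -1.07 (SE 0.051) at 6 h and -0.40 (SE 0.046) at 16 h, beside -1.21 and -1.72 for the vehicle at 6 and 16 h. Imiquimod at 16 h therefore had more Bcl2 than its vehicle and less than cells at the start. Bcl2l11 was higher than at the start in imiquimod at 6 h (1.15, SE 0.037, adjusted p = 2.53e-43) and lower at 16 h (-0.38, SE 0.040, adjusted p = 4.34e-14, edgeR). Mcl1 was 0.81 and 0.41 above the start in imiquimod at 6 and 16 h, Bak1 0.74 and 0.43, and Bax 0.34 and 0.80, the 6 h value of Bax being -0.02 with library totals. Bcl2l1 was 5.43 and 3.88 above the start, and the summed Bcl2a1 genes 7.35 and 6.65. Bik was at 36 counts in imiquimod at 6 h and 50 at 16 h, against 3 in vehicle at 0 h. The ratios were 14.4 (exact 95% interval 4.55 to 73.1) and 15.6 (5.03 to 78.1). These intervals cover counting error only and are not a test, since Bik passed the filter only through imiquimod libraries.

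**Figure D4:**
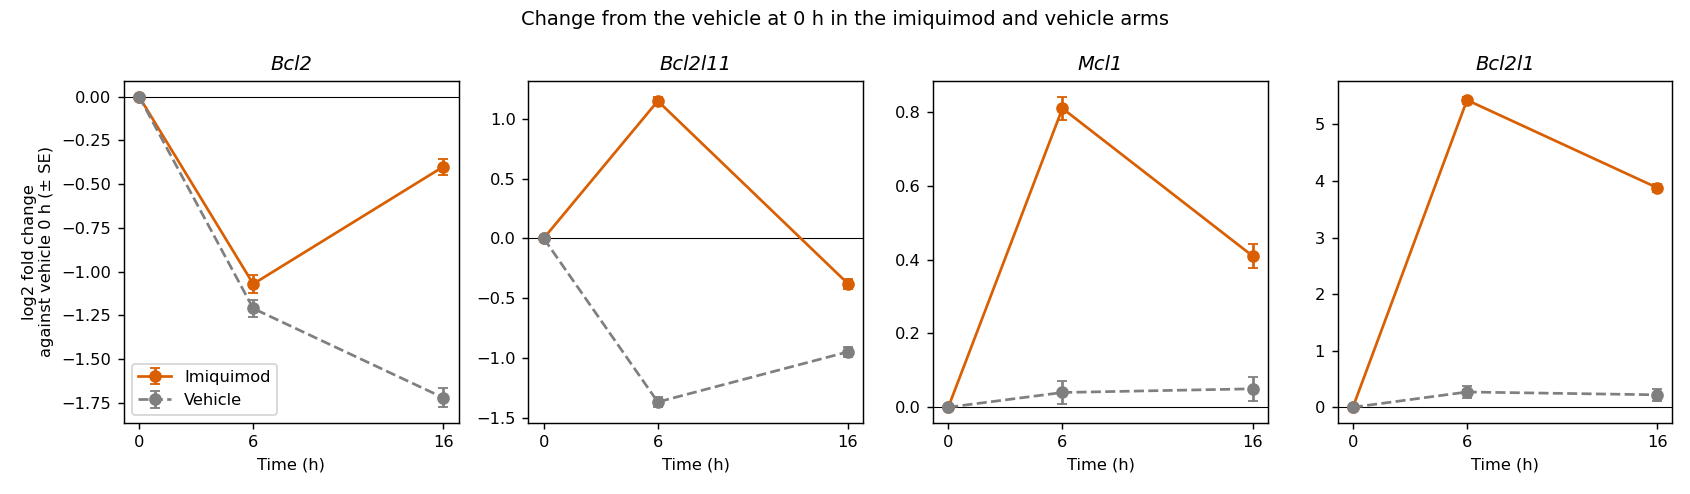
Log2 fold change against vehicle at 0 h (± SE) of Bcl2, Bcl2l11, Mcl1 and Bcl2l1 in the imiquimod (orange) and vehicle (grey, dashed) arms at 6 and 16 h; both arms are drawn from the same vehicle libraries at 0 h and each panel has its own vertical axis. Bcl2 lies under 0 in both arms and Bcl2l11 crosses 0 between 6 and 16 h with imiquimod, while Mcl1 and Bcl2l1 stay above 0 with imiquimod.

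At the start, no difference between vehicle and untreated cells was called in these genes. None of the 10 members was called between vehicle at 0 h and untreated cells at 0 h in edgeR, beside 0.00% of all genes tested, where 708 genes had an unadjusted p under 0.05 and DESeq2 called 0 genes with 347 at an unadjusted p under 0.05. Log2 differences lay between -0.13 and 0.07 for Bcl2, Bcl2l1, Mcl1, Bcl2a1d, Bcl2l11, Bax and Bak1, and the libraries of both groups overlapped. Bcl2a1a, Bcl2a1b and Bik held too few counts at 0 h for a useful difference, with 4 summed counts of Bcl2a1a in vehicle against 3 in untreated cells, a ratio of 1.29 (exact 95% interval 0.218 to 8.78).

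The order of the group levels differed among the members. Bcl2l1, Mcl1, Bcl2a1a, Bcl2a1b, Bcl2a1d and Bak1 were highest in imiquimod at 6 h and next in imiquimod at 16 h. The 4 groups without imiquimod followed, and for Bcl2l1 and Mcl1 their ranges each overlapped the next in order. For Bcl2a1a and Bak1 the order of the imiquimod groups rested on TMM. With library totals their log2 changes from imiquimod at 6 h to 16 h were 0.07 and -0.01, neither of them called. Bax and Bik were highest in imiquimod at 16 h, Bik with overlap of its 2 imiquimod groups. Bcl2l11 was highest in imiquimod at 6 h but was next highest in the libraries at 0 h (156 CPM in vehicle, 153 in untreated cells), followed by imiquimod at 16 h (120), vehicle at 16 h (80.9) and vehicle at 6 h (60.7). Bcl2 was highest at 0 h (115 CPM in vehicle, 116 in untreated cells), followed by imiquimod at 16 h (87.3), imiquimod at 6 h (55.1), vehicle at 6 h (49.7) and vehicle at 16 h (35.0), with no overlap between neighbours after 0 h.

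Across the 18 libraries, Pearson correlations of log2 levels (prior count 2) describe how alike the members were. Bcl2l1 correlated with Mcl1 at 0.98, with Bak1 at 0.95 and with Bcl2a1d at 0.96, while Bcl2 correlated with these 4 genes between -0.26 and 0.12 and with Bcl2l11 at 0.34. Bcl2l11 correlated with Bcl2l1 at 0.65 and with Bax at 0.20. Bik correlated with Bcl2l1 at 0.94, with Bcl2a1d at 0.93, with Bak1 at 0.89 and with Bax at 0.84. However, Bik reached the filter cutoff in 0 libraries without imiquimod. Its correlations, here and with its nearest genes, therefore mostly separate imiquimod libraries from the others and are not read as likeness. Among 8436 genes with a mean of at least 10 CPM, those most like Bcl2l1 were Plxnd1 (0.9983), Dusp2 (0.9976) and Fam126a (0.997), and those most like Mcl1 were Nfkbie (0.9961), Tbc1d1 (0.9958) and Csrp1 (0.9954). Dusp2 encodes a phosphatase of MAP kinases and Nfkbie an inhibitor of NF-kappaB. Most like Bcl2l11 were Skil (0.9893), Rab1a (0.9785) and Arid5a (0.9783). Most like Bcl2 were Zfp367 (0.9771), Hspa14 (0.9769) and Spred2 (0.9755), and most like Bik were Ehf (0.9772), Rnf168 (0.9752) and Cabin1 (0.9738). The points share their 6 groups, so these values mostly describe likeness of the group means.

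Of 16 further BCL2 family genes listed, 12 were tested, 1 of them (Bcl2l15) only through imiquimod libraries. Of the other 11, with imiquimod 3 rose, 7 fell and 1 was not called at 6 h (median -0.36), beside 37.7% of all genes called higher and 39.2% lower. At 16 h 4 rose, 6 fell and 1 was not called (median -0.38), beside 39.1% higher and 38.1% lower. With library totals these counts became 2 higher and 8 lower at 6 h, and 3 higher and 6 lower at 16 h. Hrk and Bcl2l10 had 0 counts in every library, and Bok at most 2 counts in any group.

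Among BH3-only genes outside the 10 members, Bmf, whose protein is known to associate with the cytoskeleton in healthy cells, fell. It was at 5.20, 5.13 and 5.11 CPM in imiquimod at 6 h and 5.56, 4.58 and 5.13 CPM at 16 h, against 40.1, 42.6 and 44.6 CPM in vehicle at 6 h and 43.0, 41.6 and 38.5 CPM at 16 h. Its level with imiquimod was close to the same at both times and apart from every other group, with log2 changes of -3.04 (SE 0.10, adjusted p = 2.24e-42) and -3.01 (SE 0.097, adjusted p = 2.19e-43) in edgeR. Pmaip1 (NOXA, which binds MCL1) was at 246, 246 and 234 CPM in imiquimod at 6 h and 99.7, 105 and 106 CPM at 16 h, against 82.3, 96.7 and 85.1 CPM in vehicle at 6 h and 77.5, 70.3 and 71.2 CPM at 16 h. Its log2 changes were 1.46 (adjusted p = 4.64e-12) and 0.51 (adjusted p = 2.08e-05) in edgeR, and, like Bcl2l11, it was lower in vehicle at 6 h (-1.06) and 16 h (-1.33) than in vehicle at 0 h. Bbc3 (PUMA) was lower with imiquimod by -0.36 at 6 h and -0.53 at 16 h, and Bad, which binds BCL2 and BCL-XL, by -0.82 and -0.56. Bid, which links death receptors to mitochondria, was not called at 6 h (-0.12, but -0.47 and called lower with library totals) and was 0.15 at 16 h, a call at adjusted p = 0.048 in edgeR that was lost with size factors and with library totals (adjusted p = 0.0739).

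Of the remaining family genes, Bcl2l14 was higher with imiquimod by 3.31 (SE 0.12, adjusted p = 1.31e-39) at 6 h and 3.37 (SE 0.11, adjusted p = 7.69e-44) at 16 h in edgeR, with 29.1 to 30.9 and 42.4 to 45 CPM in imiquimod, against 2.70 to 3.58 and 3.65 to 5.24 CPM in vehicle. Bcl2l15 held 141 counts in imiquimod at 16 h, against 2 in vehicle at 16 h (ratio 60.1, exact 95% interval 16.3 to 501, counting error only), and 28 counts in imiquimod at 6 h, against 4 in vehicle at 6 h. It passed the filter through the imiquimod libraries at 16 h alone, so its interval is a description and not a test. Bnip3l (NIX) and Bnip3, receptors for the removal of mitochondria by autophagy, fell by 2.67 and 1.28 at 6 h and by 1.79 and 0.96 at 16 h. Bnip3l was at 13.4, 16.4 and 15.1 CPM in imiquimod at 6 h, against 94.3, 93.8 and 98.6 CPM in vehicle at 6 h. Bcl2l12 fell by 1.14 and 0.38, and Bcl2l13 was -0.15 and 0.22. Bcl2l2 (BCL-W), a survival gene, was 0.29 at 6 h (-0.06 and not called with library totals) and 0.04 and not called at 16 h.

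Downstream of the mitochondria, 18 genes of the cytochrome c, caspase and inhibitor-of-apoptosis steps were tested. With imiquimod 12 rose, 4 fell and 2 were not called at 6 h (median 0.40), and 14 rose, 2 fell and 2 were not called at 16 h (median 0.57). Over all genes tested, 37.7% were higher and 39.2% lower at 6 h, and 39.1% higher and 38.1% lower at 16 h. With library totals the counts were 8 higher and 7 lower at 6 h and 13 higher and 2 lower at 16 h. Among the largest changes at 6 h were those of Casp6 (-3.51), an executioner caspase, Birc3 (1.99), which encodes the ubiquitin ligase cIAP2, and Cycs (1.56), which encodes cytochrome c. At 16 h the largest were those of Casp6 (-3.04), Cycs (1.84), Htra2 (1.54), a mitochondrial protease that counters the inhibitors of apoptosis, and Birc5 (1.38), which encodes survivin. These changes are against the vehicle of the same time. Birc5 was at 18.8 CPM in imiquimod at 16 h and 7.25 in vehicle at 16 h, against 21.5 in vehicle at 0 h. It was thus not above its starting level.

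Of 10 genes for partners and turnover of BCL2 family proteins, 9 rose and 1 fell at 6 h (median 0.60), and 7 rose, 2 fell and 1 was not called at 16 h (median 0.31), beside the same shares over all genes. With library totals these were 5 higher and 3 lower at 6 h, and 7 higher and 3 lower at 16 h. March5, a mitochondrial ubiquitin ligase known to act on the MCL1 and NOXA pair, was highest in both comparisons (log2 2.44, SE 0.060, at 6 h and 1.48, SE 0.063, at 16 h). Dynll1, a dynein light chain known to bind BIM, was 1.48 at 6 h, and Dynll2, which binds BMF, was 0.88 at 16 h. The co-chaperone genes Bag3 (1.69 and 0.61) and Bag1 (0.74 and 0.58) rose at both times.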

How the data were processed

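RNA-seq counts from 18 libraries of mouse pDCs were used. The deposited values are raw whole-number counts per gene, made by the authors; per the submitters' processing notes reads were aligned with STAR to mm10. The counting program, its strand setting and its handling of reads with several matches are not given in the sources used here. Per the labels' protocols, the libraries were made from rRNA-depleted total RNA, kept strand and were read from both ends over 75 nt. Of the gene identifiers, 97.6% were found in GENCODE M21, from which coordinates and exon lengths were taken.

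A single model of the 6 groups was fitted by quasi-likelihood (edgeR 4.0.16 under R 4.3.3) after filterByExpr with a minimum count of 10 and TMM scaling. p-values were adjusted over all 14876 genes tested and called under 0.05. The SE is the absolute log2 fold change divided by the square root of F, which understates the error of changes that rest on few counts. Means and SDs are of TMM-scaled CPM over 3 libraries. Simulated counts with known changes, drawn at a single dispersion for all genes and groups, were used to check the fit. They did not copy the unequal spread of the groups seen here.

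The members and the further gene lists were chosen with earlier results of these data known. All 10 members and all tested genes of the further family list may be named, and of the 2 other lists at most the 4 called genes with the largest absolute change per imiquimod comparison. A result that this rule would name is not reported here. The nearest genes are the 3 with the highest Pearson r, without gene models and pseudogenes. Alternatives were DESeq2 size factors, library totals, no filter, at least 1 CPM in at least 3 libraries, a replicate block, only the groups compared, DESeq2 1.42.0, the Bcl2a1 counts summed, and each library of the groups compared left out in turn.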

Additional observations from a re-analysis of the deposited data

Results flagged for a closer look

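The imiquimod effect at 16 h differed from that at 6 h, by the test of the difference itself in edgeR, for 8 members. The difference (16 h minus 6 h, log2) was 1.17 for Bcl2 and 0.49 for Bax. It was -1.5 for Bcl2l1, -0.41 for Mcl1, -0.99 for Bcl2a1b, -0.63 for Bcl2a1d, -1.94 for Bcl2l11 and -0.24 for Bak1. Such a difference was called for 56.9% of all genes tested. Bik had a fitted difference of 3.87 that is not read as one, since its vehicle libraries at 16 h held 0 counts, it was tested only through imiquimod libraries, and the value depends on the prior count.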

How the results depend on the processing

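Of the single-gene values under the alternatives, 1141 kept their direction and their side of the threshold, 20 lost a call, 7 gained one and 9 reversed; counts of members called moved by at most 1.5 times throughout. Library totals reversed Bcl2 (-0.20) and Bax (-0.07) at 6 h, Bak1 (0.09) in the difference between the times, Bcl2a1a (0.07) in imiquimod at 16 h against 6 h, Bax (-0.02) in imiquimod at 6 h against vehicle at 0 h and Bax (-0.02) in vehicle at 16 h against 0 h. They moved the share of called genes that were higher to 31.1% at 6 h (49.0% with TMM), to 75.5% (50.1%) for the difference between the times, to 74.6% (50%) for imiquimod at 16 h against 6 h and to 29.2% (48.7%) for imiquimod at 6 h against vehicle at 0 h; the cause was not tested. Bcl2 at 6 h was not called without a filter (0.11, adjusted p = 0.0948) or with only the groups compared (0.13, adjusted p = 0.0538). Leaving out 1 library each gave -0.04 to 0.20 for Bik in imiquimod at 16 h against 6 h, -0.04 to 0.13 for Bax in vehicle at 6 h and -0.07 to 0.09 at 16 h against vehicle at 0 h, none of them called. The difference of Bak1 between the times was not called without vehicle 6 h replicate 2 (-0.15, adjusted p = 0.114), and that of Bik, not counted in the text, was lost without any 1 of 5 vehicle libraries, without a filter (adjusted p = 0.0614) and in DESeq2 (adjusted p = 0.0717). Mcl1 in vehicle at 16 h against 0 h was called with only the groups compared (0.06, adjusted p = 0.0301) and without vehicle 16 h replicate 1 (0.08, adjusted p = 0.0463). Between vehicle at 0 h and untreated cells, all genes called were 1 with size factors, 1 with library totals, 5 without a filter, 4 with only the groups compared and 0 to 7 leaving out 1 library. No clear pairing by replicate number was seen. Of 45 same-numbered pairs, 10 had deviations correlated over 0.1 (median 0, range -0.5 to 0.29), and the median of other pairs was -0.01. Of 18 libraries, 6 correlated best with their own number. With 3 libraries per group this check is weak and cannot exclude shared animals or cultures. The replicate block gave 11400 called genes at 6 h (11439 without it), 11448 at 16 h (11490) and 8398 for the difference (8468), and changed no call of a member. Depth limits Bik, Bcl2a1c and Bcl2l15, and the Bcl2a1 genes at 0 h.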
